A study of Drosophila melanogaster with 3 samples.

Results

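Chromatin immunoprecipitation with sequencing mapped CG7368, tagged with green fluorescent protein at its C-terminal end and carried by a stable transgenic line, in whole Drosophila melanogaster prepupae of both sexes pooled, with an antibody against the tag. The age of the animals is unknown per the labels, and the promoter that drives the transgene is not named in them. The series holds 1 group of 3 biological replicates, all of them CG7368-GFP animals, so there is no contrast between genotypes, treatments or times. Described here are 10 genes of the apoptosis pathway, chosen by name, of 13986 protein-coding genes: the activators rpr, hid, grim and skl, the caspases Dronc, Drice and Dcp-1, the adaptor Dark, and the inhibitors Diap1 and Diap2. Regions belong to a gene when their summit, the base of highest signal, lies in it or within 5 kb. Whole animals mix all tissues, so strong occupancy in few cells and weak occupancy in many cannot be told apart.

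Apoptosis in the fly is held back by the inhibitor Diap1, a ubiquitin ligase that binds caspases. The activators Reaper, Hid, Grim and Sickle are proteins that share a short N-terminal motif, with which they bind Diap1 and release the caspases. The initiator caspase Dronc then assembles on Dark, the fly relative of Apaf-1, and cleaves the effector caspases Drice and Dcp-1. At metamorphosis the steroid ecdysone triggers the death of larval tissues such as midgut and salivary glands, and rpr and hid are induced there.

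Regions that the authors kept in their optimal list, made with a test of reproducibility, are termed optimal peaks here, 5246 in all. Their pooled list holds 30000 regions, as does the list of each replicate. Per their labels these lists hold peaks and background together, so a region that is not an optimal peak may be background. Signals are the authors' values in arbitrary units. The median signal of the pooled list was 44.4, and the lowest optimal peak had 104.1. Within each list regions were ranked by signal, with rank 1 the highest, and the 5246 highest of a replicate are termed its highest regions. Of the optimal peaks, 66.1% overlapped the highest regions of all 3 replicates, so an optimal peak need not rank high in each replicate. At the genes described here, the strongest optimal peak had the same rank in the pooled and optimal lists, from 337 to 3999. Down to rank 3999 the optimal list thus held the pooled regions of highest signal.

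In the pooled list the highest CG7368 signals among the 10 genes were at the inhibitor gene Diap1 and the activator gene hid, while in replicate 1 Drice was first. Optimal summits lay in or within 5 kb of 6 of the 10 genes, namely Diap1, hid, Drice, Dark, Diap2 and Dcp-1, against 41.9% of all protein-coding genes (5861 of 13986). With 10 genes this share is a description, and it was not tested. All 10 genes had a summit in the pooled list, against 75.7% of protein-coding genes. The 4 without an optimal summit, rpr, grim, skl and Dronc, had 1 to 4 pooled regions each. A pooled region without an optimal summit was the state of 33.8% of protein-coding genes.

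The 6 genes had 11 optimal summits together, 4 at Diap1, 2 each at Dark and Dcp-1, and 1 each at hid, Drice and Diap2. The 2 at Dark belong to overlapping peaks, so the 11 lie at 10 separate places. The mean was 1.1 per gene for the 10 genes and 0.799 for all protein-coding genes, over searched stretches with medians of 12.4 kb and 12.2 kb. The medians do not show that hid (27.9 kb) and Diap1 (22.6 kb) had longer stretches, where more summits can fall. At least 2 optimal summits, as at Diap1, Dark and Dcp-1, were found at 19% of protein-coding genes, and at least 4, as at Diap1, at 4.13%. In the pooled list the 10 genes had 62 summits, 21 of them at Diap1 and 18 at hid. This was 4.12 per 10 kb searched, against 2.24 per 10 kb of the assembled chromosomes. The median was 3.5 per gene, against 2 for all protein-coding genes. Besides the 11 optimal peaks, the 62 were 49 regions that overlapped no optimal peak and 2 that overlapped one.

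The highest regions of single replicates marked 6, 6 and 7 of the 10 genes in replicates 1, 2 and 3, against 42.9%, 43.3% and 44.6% of protein-coding genes. Diap1, hid, Drice, Dark and Diap2 were marked in all 3. The differences between replicates were at the other genes. Dcp-1 was marked in replicates 2 and 3, rpr in replicate 1 and grim in replicate 3, while Dronc and skl were marked in none.

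The highest region of Diap1 had ranks 499, 317 and 312 in replicates 1, 2 and 3, and that of hid had 420, 331 and 441. Drice followed with 382, 787 and 887, Dark with 2010, 846 and 1059, and Diap2 with 1689, 1706 and 1175. Diap1, hid and Drice each lay above Dark and Diap2 in every replicate. The order among Diap1, hid and Drice changed between replicates, as did that of Dark and Diap2. Dcp-1, with 6261, 3486 and 3435, lay below all of them in every replicate. The ranges of rpr (4920, 11518 and 5532), grim (12312, 6775 and 5243) and Dronc (9542, 10901 and 8797) overlapped each other, and those of rpr and grim also overlapped the range of Dcp-1. For Dcp-1 and grim the highest region was at another place in replicate 1 than in replicates 2 and 3, and for rpr it was at a different place in each replicate. The region at skl was last, at rank 12849 in replicate 1 and 17924 in replicate 3, with none in replicate 2.

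**Figure D1:**
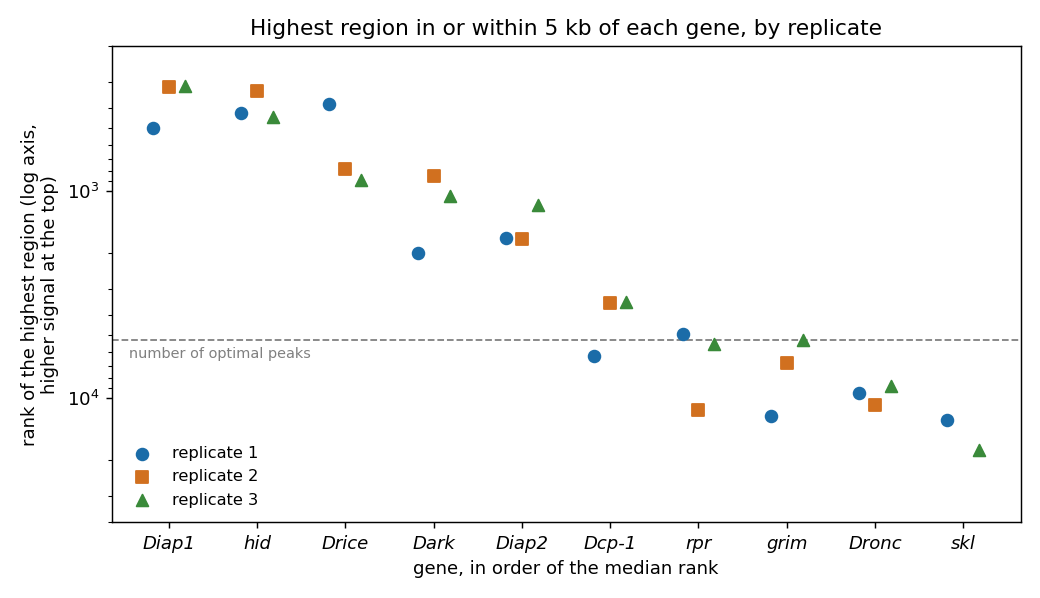
Rank of the highest region in or within 5 kb of each of the 10 genes (vertical axis, log scale with high signal at the top) in each of the 3 replicates (symbols). The dashed line marks rank 5246. Diap1, hid, Drice, Dark and Diap2 are above it in all 3 replicates, and skl has no region in replicate 2.

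Among the activators only hid, whose product acts at mitochondria and binds Diap1, had an optimal summit within 5 kb. The gene (FBgn0003997) lies on the minus strand of 3L from 18167745 to 18185641 in dm6, and the peak was intergenic, 301 bp upstream of its start site. The signal was 484 (rank 382 of the optimal list), and ranks in the replicates were 420, 331 and 441 (mean 397 ± 58.4, SD, n = 3). The summits of the replicates lay within 30 bp of the pooled summit. Inside hid, regions of the pooled list were frequent but weak. The strongest, in an intron 3959 bp from the start site, had a signal of 95.9 and rank 5826, with ranks 7333, 10266 and 4612 in the replicates.

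The searched window cuts through a longer run of peaks. The next optimal summit upstream of hid lay 5004 bp from its start site, 4 bp beyond the window, with a signal of 503. The optimal summit nearest to the limit on its inner side was that of Dcp-1 at 4024 bp, with a signal of 107. In all, 14 optimal peaks lay from 5004 bp to 57.7 kb upstream, all of them intergenic, and 11 of these were among the highest regions of all 3 replicates. Their signals ranged from 116 to 683 with a median of 201, and the median of all optimal peaks was 169. The strongest, 50.4 kb upstream, had rank 153 in the optimal list and ranks 178, 107 and 214 in the replicates. Further peaks with signals above 300 stood at 9.56 kb (447) and 30.2 kb (321). Several noncoding RNA genes and the protein-coding genes CG5103, CheA75a, CG7320 and CG13700 lie between hid and grim, and hid had the nearest start site for only the 2 peaks closest to it.

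A count of 15 or more optimal summits in the 60 kb upstream of a start, as at hid, was found for 0.622% of protein-coding genes (87 of 13986), with a median of 2 over all of them. This window was chosen after the peaks were seen. Genes near the same peaks share them, so these 87 genes are not 87 separate places. Of the other members, Drice had 6 such summits, Dcp-1, Diap1 and Diap2 had 1 each, and rpr, grim, skl, Dronc and Dark had 0.

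The 3 strongest peaks of this run that hold no annotated exon are shown whole because they had the highest signals between hid and grim. Letters are the plus strand of dm6, 5′ to 3′, and hid is transcribed from the minus strand. Capitals mark matches on either strand to a set of short words named further on.
hid start-site peak, chr3L:18185910-18186092: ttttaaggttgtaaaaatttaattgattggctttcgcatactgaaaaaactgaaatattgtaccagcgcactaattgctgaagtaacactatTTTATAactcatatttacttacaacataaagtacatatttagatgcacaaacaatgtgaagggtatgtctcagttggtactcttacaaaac
hid peak 5004 bp upstream, chr3L:18190555-18190791: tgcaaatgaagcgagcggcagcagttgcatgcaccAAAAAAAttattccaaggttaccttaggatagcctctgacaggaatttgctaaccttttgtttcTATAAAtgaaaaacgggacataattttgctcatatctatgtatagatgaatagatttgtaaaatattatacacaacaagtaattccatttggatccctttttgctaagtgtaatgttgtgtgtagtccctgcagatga
hid peak 50.4 kb upstream, chr3L:18235881-18236175: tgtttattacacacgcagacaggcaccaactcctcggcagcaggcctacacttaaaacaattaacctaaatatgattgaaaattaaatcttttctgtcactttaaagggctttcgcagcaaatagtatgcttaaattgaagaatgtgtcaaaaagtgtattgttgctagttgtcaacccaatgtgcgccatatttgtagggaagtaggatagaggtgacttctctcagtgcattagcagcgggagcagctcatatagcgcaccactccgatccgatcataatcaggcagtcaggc
Bases A and T made up 69.9% of the start-site peak, 64.6% of the peak 5004 bp upstream and 57.6% of the peak 50.4 kb upstream. The strongest peak holds none of the words searched, while the other two each hold TATAAA once and the peak 5004 bp upstream also AAAAAAA.

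**Figure D2:**
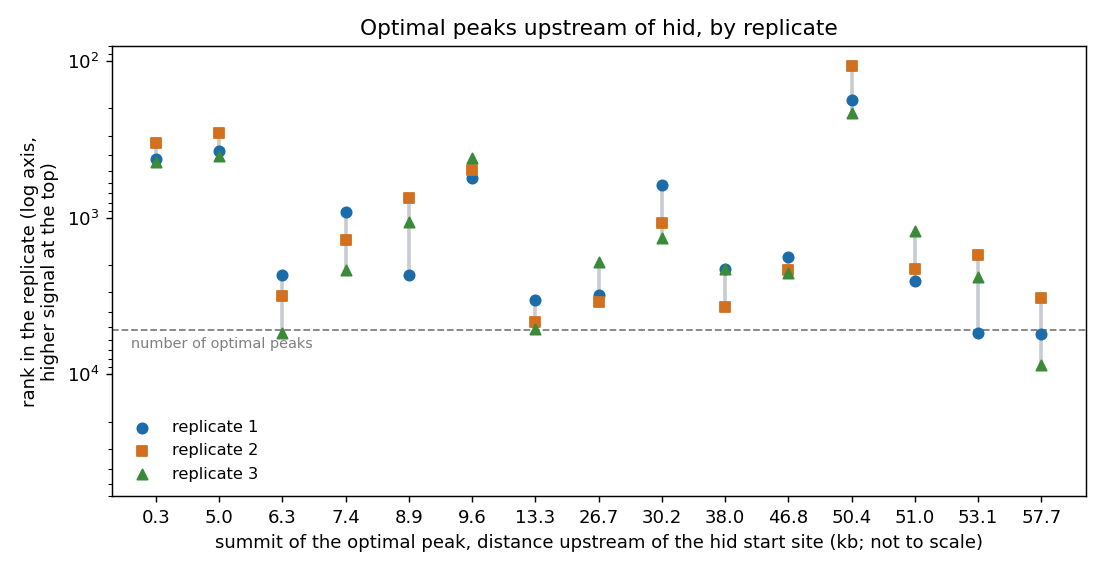
Ranks in the 3 replicates (vertical axis, log scale with high signal at the top) of the 15 optimal peaks in the stretch from hid to skl, ordered by distance upstream of the hid start site in kb. Grey bars join the lowest and highest rank, and the dashed line marks rank 5246. The peak at 50.4 kb has the highest rank in all 3 replicates.

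The neighbouring activators were in a stretch with no optimal peak. From hid to skl the 4 activators span 272 kb of 3L. Between hid and grim there were 15 optimal summits over 117 kb, which is 1.28 per 10 kb against 0.392 per 10 kb of the assembled chromosomes, while there were 0 over 93.1 kb between grim and rpr and 0 over 40.1 kb between rpr and skl. The interval without optimal summits that contains grim, rpr and skl was 378 kb long, the sixth longest of 5240 intervals between neighbouring optimal summits, whose median was 7.71 kb. This interval was also chosen after the peaks were seen. It was not void of regions, since the pooled list had 65 summits there, 1.72 per 10 kb against 2.24 over the chromosomes.

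**Figure D3:**
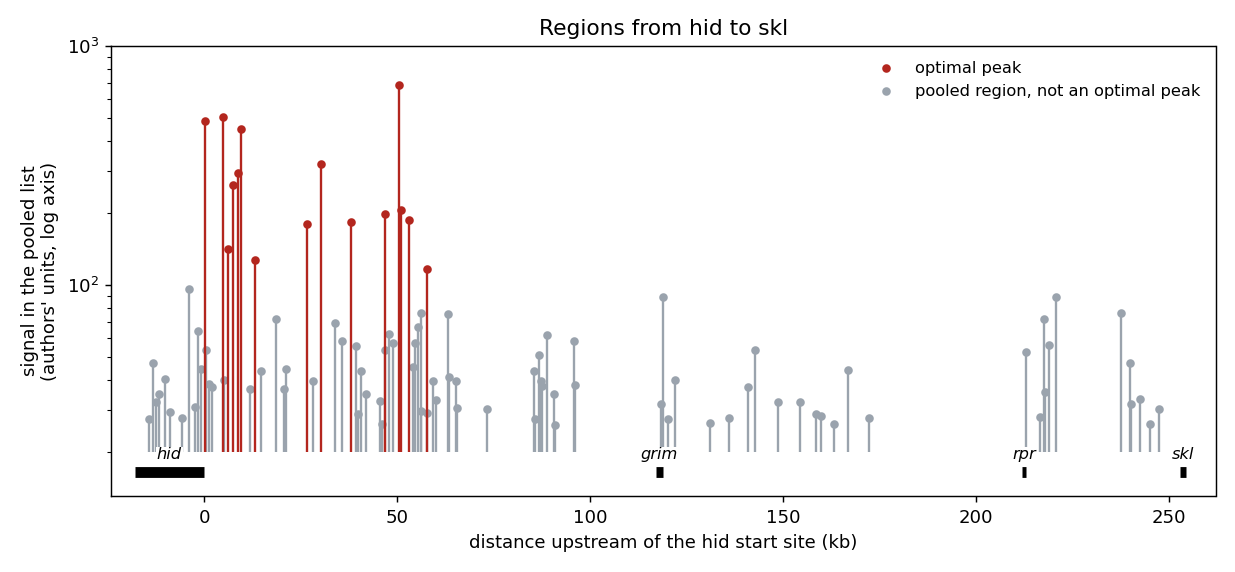
Signal in the pooled list (vertical axis, authors' units, log scale) of the regions from hid to skl, by distance upstream of the hid start site in kb. Red lines are optimal peaks and grey lines are other pooled regions, and black bars are the 4 genes. All 15 optimal peaks lie within 57.7 kb of the hid start site, and grim and rpr have only grey lines. The pooled region at skl lies just past the end of the stretch and is not drawn.

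Each of these 3 genes had a pooled region of low signal at its start site, which may be background. The deposited −log10 q-values were 2.38 at grim, 0.897 at rpr and 0.422 at skl, against 3.94 for the hid start-site peak. At grim (FBgn0015946, 3L 18302719 to 18304417) the summit lay 152 bp upstream with a signal of 89.2 and rank 6408 in the pooled list. Replicate 1 had no region there, and replicates 2 and 3 had ranks 6775 and 5243. At rpr (FBgn0011706, 3L 18397535 to 18398435) the summit lay 6 bp inside the gene with a signal of 52.3, and ranks in the replicates were 4920, 13384 and 9119. The summits of replicates 1 and 2 lay more than 200 bp further into the gene. A stronger region of signal 71.5 lay 4790 bp upstream of rpr, with no region in replicate 1 and ranks 12172 and 5532 in replicates 2 and 3. At skl (FBgn0036786, 3L 18438561 to 18439942) the single pooled region, 61 bp upstream, had a signal of 37.9. The start-site signals of these 3 genes were below the lowest optimal peak. The same held for every region at the 10 genes that overlapped no optimal peak, so it adds nothing to their absence from the optimal list. The start-site signal of hid was far above the lowest optimal peak.

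Diap1, the main inhibitor of Dronc and Drice, had the largest number of optimal summits and the highest pooled signal of the 10 genes. It lies on the minus strand of 3L from 16038410 to 16051034 (FBgn0260635) and has 5 annotated start sites. Its strongest peak was intronic, 737 bp downstream of the start site in the middle of the gene and 4925 bp into the gene, with a signal of 505 (rank 337). Ranks of 499, 317 and 312 gave a mean of 376 ± 107 (SD, n = 3). A second intronic peak 2702 bp into the gene had a signal of 177 and ranks 4186, 1630 and 2827. Another, 9198 bp into the gene, had a signal of 131 and was less even, with ranks 2147, 8792 and 2862. The fourth lay 1200 bp downstream of the gene in a 3′ UTR of CG5895, with a signal of 168 and ranks 2416, 3058 and 3051.

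None of the 5 start sites of Diap1 had an optimal summit within 500 bp. The region nearest to one, 7 bp from the middle start site, had a signal of 97.7 and rank 5699, just below the optimal list, with ranks 2515, 7765 and 5219. Of the 4 optimal peaks, only the strongest had Diap1 as the gene of the nearest start site, and the others were nearer to those of lncRNA:CR43951, asRNA:CR45889 and CG5895. The 3 protein-coding genes outside the list whose strongest peak had ranks most like that of Diap1 were CG42353, CG42354 and bbg. CG42353 and CG42354 share 1 peak with ranks 505, 312 and 306, a summed absolute log2 ratio of 0.07 over the 3 replicates, and bbg had 486, 293 and 322 with 0.20.

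The strongest Diap1 peak is shown whole, as the plus strand of dm6 from 5′ to 3′, because it had the highest pooled signal of the 10 genes. Capitals mark the run of A bases among the words searched.
Diap1 intronic peak, chr3L:16046002-16046300: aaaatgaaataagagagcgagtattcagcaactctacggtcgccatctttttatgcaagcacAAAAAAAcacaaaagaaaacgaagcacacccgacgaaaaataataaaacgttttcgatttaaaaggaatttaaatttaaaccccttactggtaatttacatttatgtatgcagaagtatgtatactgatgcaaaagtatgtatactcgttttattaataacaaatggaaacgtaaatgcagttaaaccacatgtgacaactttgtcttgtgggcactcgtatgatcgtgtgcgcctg
The summit is base 108 of this stretch, and 65.6% of its bases were A or T.

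**Figure D4:**
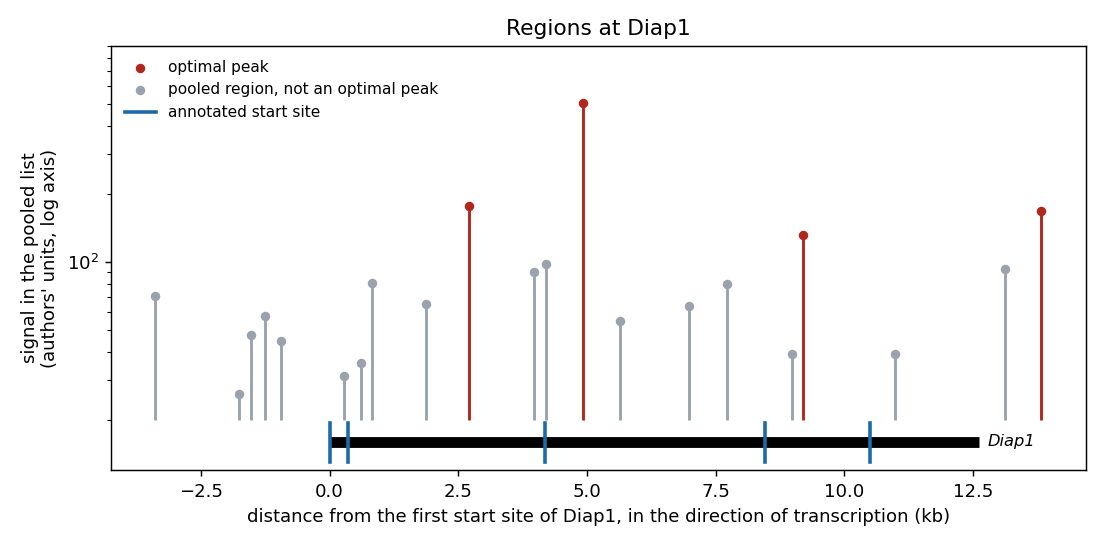
Signal in the pooled list (vertical axis, authors' units, log scale) of the 21 regions at Diap1, by distance in kb from its first start site in the direction of transcription. Red lines are the 4 optimal peaks, grey lines are other pooled regions, the black bar is the gene and blue ticks are its 5 start sites. The peak 4.93 kb into the gene has the highest signal, 505.

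Drice, the main effector caspase, had 1 optimal peak, which lay downstream of it and next to another gene. The gene (FBgn0019972) lies on the plus strand of 3R from 29799658 to 29801584. The summit was 1424 bp past its end and 63 bp from the start site of Etfb, which encodes a subunit of the electron transfer flavoprotein. The signal was 382 (rank 638), and ranks of 382, 787 and 887 gave a mean of 685 ± 267 (SD, n = 3). No other region of the pooled list lay within 5 kb of Drice. The 50 bp either side of the summit are shown because TATAAA, in capitals, starts 5 bp from it. They are the plus strand of dm6, and the start site of Etfb lies outside them.
Drice downstream peak, chr3R:29802958-29803058: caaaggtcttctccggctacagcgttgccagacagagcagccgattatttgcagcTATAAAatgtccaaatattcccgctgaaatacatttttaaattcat

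Dronc, the initiator caspase (FBgn0026404, 3L 9968479 to 9971002), had no region at its own start site. Its nearest pooled region was 1487 bp downstream of the gene, in introns of vnc and CG42455 and 177 bp from a start site of CG42455, with a signal of 66.4 and rank 9241, and ranks of 9542, 10901 and 8797 were all outside the highest regions. The mean was 9747 ± 1067 (SD, n = 3), so the replicates gave this weak region similar ranks. Like other pooled regions outside the optimal list, it may be background.

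Dark (FBgn0263864, 2R 17020027 to 17026703), which forms the platform on which Dronc is activated, had optimal summits 240 and 441 bp past its 3′ end. These 2 peaks overlap and met the same region in each replicate, with ranks 2010, 846 and 1059, so they are 1 place rather than 2. The signals were 287 and 180. The first summit was 50 bp from the start site of asRNA:CR44390, and the second was 46 bp from that of the protein-coding gene RhoGEF2. The start site of Dark was 6916 bp from the first summit.

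Dcp-1 (FBgn0010501, 2R 23551313 to 23553547), the second effector caspase, had the weakest optimal peaks of the 6 genes. The summit 137 bp inside its 5′ end was in the 5′ UTR, 101 bp from the start site of pita, a zinc finger protein gene, and had a signal of 126. Its ranks of 10636, 3486 and 3435 put it outside the highest regions of replicate 1. The other summit, in an intron of wmd 4024 bp upstream, had a signal of 107 and ranks 6261, 8062 and 4753. A further region, 3198 bp upstream, missed the optimal list narrowly, with a signal of 103.7 and rank 5273.

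Diap2 (FBgn0015247, 2R 15932170 to 15934825), an inhibitor that binds Drice and also acts in innate immune signalling, had 1 optimal peak. The summit lay in an intron of bdg 1633 bp past the 3′ end of Diap2, with a signal of 241 (rank 1527). Ranks of 1689, 1706 and 1175 gave a mean of 1523 ± 302 (SD, n = 3), the most even of the peaks at the 3 genes on this arm.

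Most of these summits were closer to the start site of another gene. Of the 11 optimal summits, 5 lay within 500 bp of a start site, against 38.3% of all optimal peaks, but only those at hid and Dcp-1 were within 500 bp of a start site of the named gene. The named gene had the nearest start site for 2 of the 11, the hid peak and the strongest Diap1 peak. The like share for summits assigned to all protein-coding genes was not computed, so this count cannot be called low or high for these genes. Of the 11 peaks, 8 overlapped the highest regions of all 3 replicates, against 66.1% of optimal peaks, and the 3 that did not were both peaks of Dcp-1 and the Diap1 peak of signal 131. The median signal of the 11 was 180, against 169 for all optimal peaks.

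Within 25 bp of the summit, A and T made up 64.3% ± 8.03 of the bases (SD over 11 peaks), against 65.2% ± 11.5 over 5246 optimal peaks, and 66.9% ± 10.4 over the 14 peaks further upstream of hid. The TATA box word TATAAA was found within 50 bp of the summit, on either strand, in 3 of the 11 peaks (the Drice peak and 2 at Diap1) and in 5 of the 14 upstream of hid, against 19.9% of optimal peaks. AAAAAAA was in 1 of 11 and 0 of 14, against 14.2%, and TAATTA in 0 and 1, against 8.39%. CAGCTG, an E-box, was in 1 of 11 and 1 of 14, against 3.62%. The nuclear receptor word AGGTCA (1.79% of optimal peaks), the AP-1 word TGAGTCA or its reverse complement TGACTCA (0.801%), AGATAAG (1.62%), TGATAAG (2.15%), TATCGATA (0.762%), GAGAGAG (2.15%) and CACACAC (2.86%) were in none of these 25 windows. The consensus of a p53 half-site, in 1.96% of optimal peaks, was in 0 of 11 and in 1 of 14, the peak of signal 205 next to the strongest. Whole p53 elements were not searched. At the summit of the hid start-site peak itself none of the words was found, since its TATAAA lies 60 bp away.

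Other genes of cell death had optimal summits in varied shares. Over 7 lists, 35 of 49 genes (71.4%) had an optimal summit in the gene or within 5 kb, against 41.9% of protein-coding genes. The genes of the lists are longer, with a median of 4.19 kb against 2.16 kb over protein-coding genes. The transcriptional regulators of rpr and hid, which are long genes with a median of 40.9 kb, had 11 of 12, led by the ecdysone-induced nuclear receptor gene Eip75B (signal 613), foxo (357), the salivary gland factor gene fkh (333) and the CBP gene nej (311). The nej peak was nearer to the start site of lncRNA:CR42657. Without the transcriptional regulators 24 of 37 genes remained, with a median of 3.00 kb. The part of gene length in these shares was not tested.

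Death signalling genes had 6 of 7, led by p53, the fly counterpart of the tumour suppressor, with a signal of 542 and ranks 364, 366 and 221 for an intronic peak 2989 bp past its end that was nearer to the start site of CG17121. The adaptor gene Fadd had 264 with how as its nearest start site, the TNF ligand gene egr 139 and Corp 137. The start sites nearest to the egr and Corp peaks were those of snoRNA:Or-ACA6 and CG15343. Engulfment genes, which clear dead cells, had 6 of 7, led by mbc (309), ced-6 (276), Ced-12 (182) and the scavenger receptor gene crq (158). The mbc, ced-6 and crq peaks were intronic, and the Ced-12 peak was 151 bp from the start site of ThrRS.

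Among genes of the Bcl-2 family and mitochondria 4 of 6 had an optimal summit. Cyt-c-p and Cyt-c-d, the neighbouring cytochrome c genes, share their strongest peak, in an intron of Cyt-c-p, with a signal of 614 and ranks 341, 186 and 190. The peaks assigned to Pink1 (550) and Debcl (161) were nearer to the start sites of ND-ASHI and Fmo-2. Inhibitor family members, antagonists and partners had 3 of 5. The strongest peak of all the lists was here, in an intron of dnr1, a ubiquitin ligase gene that restrains caspases, with a signal of 1425 and ranks 5, 33 and 22, and the start site nearest to it was that of CG11362. The morgue peak (1002) was 79 bp from the start site of MFS18, and that of Bruce (123) was nearer to sle.

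DNA degradation genes and executor substrates had 4 of 7, led by DNaseII, which digests DNA of engulfed cells, whose peak lay 147 bp upstream of its start site with a signal of 281. Acn (277), Drep2 (213) and Drep4 (121) followed, each with the start site of another gene nearer to the summit. The remaining caspases and a partner had 1 of 5, Decay with 140. Damm, Dredd, Strica and eIF3m had neither an optimal summit nor a pooled one. Among the 7 caspases of both sets Drice, Dcp-1 and Decay had an optimal summit, a share close to the 41.9% of protein-coding genes. Dronc had only a pooled one, and 75.7% of protein-coding genes had a pooled summit.

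**Figure D5:**
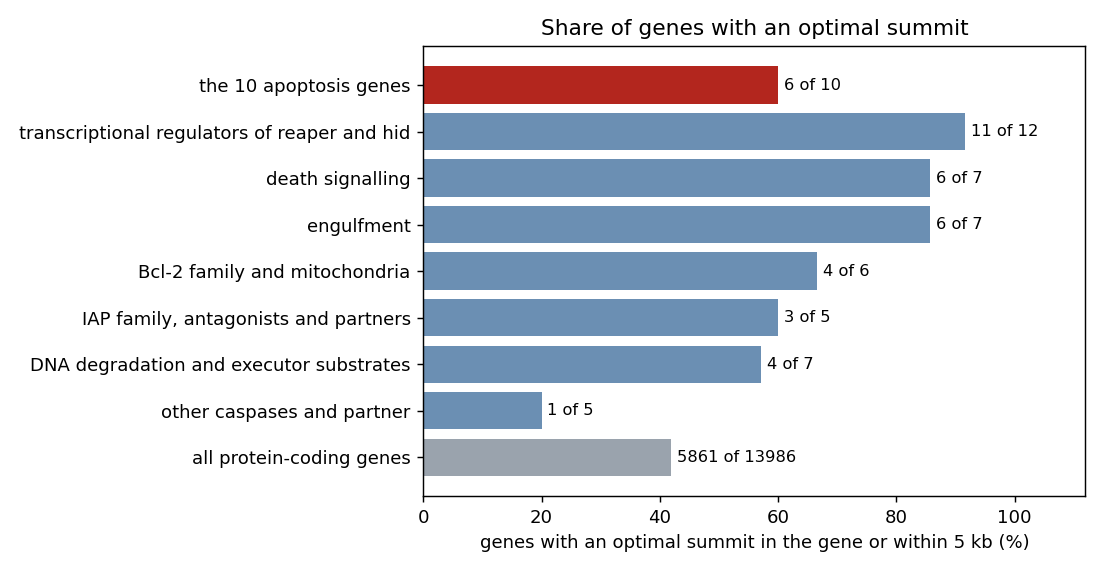
Share of genes with an optimal summit in the gene or within 5 kb (horizontal axis, percent) for the 10 apoptosis genes (red), 7 lists of other cell death genes (blue) and all protein-coding genes (grey), with counts beside the bars. The 10 genes have 6, the other caspases and partner 1 of 5, and protein-coding genes 41.9%.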

How the data were processed

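Peak lists in dm6 coordinates, 1 for each of 3 replicates, 1 from pooled alignments and 1 optimal list, were used as the authors deposited them. Per the file headers and accompanying descriptions, replicate and pooled regions were called against a control, and the optimal list was derived from them by the irreproducible discovery rate. Neither the caller nor the aligner nor the read depth is stated in these sources, so the depth is unknown and no counting error is given. The signal of each region is the authors' value, as is the −log10 q-value deposited with it. The latter served as an alternative ranking and is given for the start-site regions of the activators. Per the labels, chromatin was sonicated to 200 to 800 bp.

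Summits were the start plus the offset, written from 1. All positions lie inside the dm6 chromosomes of the reference. Genes came from Ensembl release 115 without transposable elements (18358 genes). Replicate ranks of a peak are those of the highest region that overlapped it by at least 1 bp. Lists of other genes were matched by symbol (42 of 49 entries) or synonym (7). Sequences were read from the RefSeq assembly of dm6. Named are the members, the genes of the nearest start sites, up to 4 leading genes per list and the 3 genes most like Diap1. Members and lists were chosen with earlier results of these data known. With 1 group no test was made; the spread is that of the 3 replicates. Functions that assign summits were tested on simulated data. Python 3.11.15 and pandas 2.3.3 were used. The alternatives tried are given in the closing section.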

Additional observations from a re-analysis of the deposited data

How the results depend on the processing

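Of the 10 genes, 6 had an optimal summit within 5 kb, against 41.9% of protein-coding genes. There were 4 with a window of 1 kb against 24.2%, 6 with 2 kb against 29.4%, and 6 with 10 kb against 57.1%, where the members' share is close to that of all genes. Overlap in place of the summit gave 6. Keeping the stronger 50% of optimal peaks gave 5 against 28.7%, and peaks among the highest regions of all 3 replicates gave 5 against 32.3%. Counting only summits inside the gene left 2 genes and 4 summits, against 12.3% of protein-coding genes. Assigning each summit to the nearest start site at any distance also left 2 genes, hid and Diap1, with 3 summits. The share of protein-coding genes under this assignment was not computed, so that count has no background. The pooled list marked all 10 genes with 62 summits, against 75.7%. The count of 11 summits became 7 with a window of 1 kb and 7 in the stronger 50%. The same filter was also applied with replicates 1, 2 and 3 left out in turn, keeping optimal peaks among the highest regions of the remaining replicates. The genes then numbered 6, 5 and 5, against 35.6%, 34.3% and 34.4%, and the summits 8 to 9. The optimal list itself, made from all 3 replicates, was not made anew. Under this filter Dcp-1 was kept only when replicate 1 was left out. Of 11 peaks, 8 were among the highest regions of every replicate, but 5 with a 50% reciprocal overlap, and 8 to 9 without single replicates. The median replicate rank of the strongest Dcp-1 peak, 3486 over 3 replicates, was 7035.5 without replicate 2 and 7061 without replicate 3. Of the 49 other cell death genes, which are longer than protein-coding genes by the median, 35 had a summit in the gene or within 5 kb. Inside the gene only there were 16 of 49. The shares of protein-coding genes were 41.9% and 12.3%. The stretch from hid to skl held 97 regions in the pooled list. Ranking by column 8 was not run because all its values are -1. No paired analysis was possible because there is only 1 group. Signals could not be set against read depth.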
